A study of Mus musculus with 18 samples.

Results

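Mechanical stress genes of the sarcomere were followed in mouse heart tissue across control, MI and HXP animals. The set held 10 genes chosen by name, of 34150 genes in the deposited files: Ankrd1, Ankrd2, Ankrd23, Xirp1, Xirp2, Fhl1, Fhl2, Csrp3, Nrap and Rcan1. All 10 were found by symbol in the GENCODE M21 annotation of GRCm38, and 9 were abundant enough to test, with 0.5 FPKM or more averaged over all libraries. FPKM is a level per exon length and library depth. The 18 libraries were made from ribosomal RNA depleted total RNA, with 6 libraries each for control mice, mice with a myocardial infarction (MI group) and HXP-treated mice. By its title, the series concerns HXP treatment in acute MI, and the labels do not state whether every HXP animal was infarcted. The sources used here do not give strain, age, the procedure done in controls, the dose and content of HXP, the times of infarction, treatment and collection, or the part of the heart taken.

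Heart muscle cells sense load at the Z-disc, at the I-band region of the giant protein titin and at the intercalated disc where cells join. Several small proteins bind there and are also found in the nucleus, and the transcripts of many of them are known to climb when the heart wall is stretched. The ankyrin repeat proteins encoded by Ankrd1, Ankrd2 and Ankrd23 bind titin. Xirp1 and Xirp2 encode Xin repeat proteins that bind actin at the intercalated disc. Fhl1, Fhl2 and Csrp3 (muscle LIM protein) encode LIM-domain proteins of the sarcomere, and Nrap encodes a nebulin-related anchoring protein of forming myofibrils. Rcan1 encodes an inhibitor of the phosphatase calcineurin and is itself a known target of calcineurin and NFAT.

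The start regions of 4 of these genes are shown as examples, each with a motif of a pathway known in load signalling. Ankrd1, Xirp2 and Rcan1 rose in MI on the deposited scale, while Fhl2 did not pass the test. Sequences are the 250 bases before the RefSeq start (GRCm38.p6), written 5′ to 3′ on the strand of the gene, and 9 of the 10 genes matched an entry, with 14 start sites. On both strands 4 motifs were searched: M-CAT (CATTCC, bound by TEAD factors), the NFAT core (GGAAA), the CArG box of SRF and the MEF2 site. Capitals mark the matches. Ankrd1 lies on the minus strand of chromosome 19 (window chr19:36119845-36120094) and has 2 M-CAT matches. Xirp2 lies on the plus strand of chromosome 2 (chr2:67445752-67446001) and has 1 MEF2 match. The upstream start site of Fhl2, on the minus strand of chromosome 1 (chr1:43196762-43197011), has a CArG box and a MEF2 site. The internal start site of Rcan1, on the minus strand of chromosome 16 (chr16:92400079-92400328), has 3 NFAT core matches.
Ankrd1: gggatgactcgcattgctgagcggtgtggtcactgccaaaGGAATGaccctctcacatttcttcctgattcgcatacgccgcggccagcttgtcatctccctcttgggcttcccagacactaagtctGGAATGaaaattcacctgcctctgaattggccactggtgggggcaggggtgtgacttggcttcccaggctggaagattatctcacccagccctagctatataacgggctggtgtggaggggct
Xirp2: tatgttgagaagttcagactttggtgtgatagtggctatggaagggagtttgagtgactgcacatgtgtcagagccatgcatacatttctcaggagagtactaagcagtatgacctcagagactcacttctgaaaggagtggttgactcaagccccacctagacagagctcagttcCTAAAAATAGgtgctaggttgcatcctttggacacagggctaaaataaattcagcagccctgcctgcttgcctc
Fhl2: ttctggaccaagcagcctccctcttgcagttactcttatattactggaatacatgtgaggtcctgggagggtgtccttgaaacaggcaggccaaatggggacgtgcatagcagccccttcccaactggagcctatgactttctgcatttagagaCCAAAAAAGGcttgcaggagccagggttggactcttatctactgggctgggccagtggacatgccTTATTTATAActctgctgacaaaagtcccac
Rcan1: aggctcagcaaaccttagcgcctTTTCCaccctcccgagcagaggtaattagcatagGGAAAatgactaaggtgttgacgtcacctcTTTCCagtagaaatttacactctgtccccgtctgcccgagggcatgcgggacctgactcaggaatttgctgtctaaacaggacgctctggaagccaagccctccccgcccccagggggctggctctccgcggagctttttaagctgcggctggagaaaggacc
In Ankrd1 the first M-CAT match began 210 bases before the start and the second 123 bases before it. The MEF2 match of Xirp2 began 74 bases before the start. In Fhl2 the CArG box began 96 bases and the MEF2 site 31 bases before the start. The NFAT core matches of Rcan1 began 227, 193 and 163 bases before the internal start site, and the other Rcan1 start site held none of the 4 motifs. Of 32851 promoter windows of the same length in the table, 12.6% held M-CAT, 55.6% the NFAT core, 1.47% a CArG box and 2.92% a MEF2 site. Of the 14 windows of the members, 2 held M-CAT, 5 the NFAT core, 3 a CArG box and 2 a MEF2 site. Among windows not shown, those of Ankrd23 held M-CAT and the NFAT core, and 1 of Csrp3 held the NFAT core. Those of Fhl1 held a CArG box and the NFAT core, and the other Fhl2 window held a CArG box. The motifs were thus found both in genes that rose in MI and in genes that did not pass. A match describes these letters only. The files give 1 value per gene, so that transcripts from different start sites were not told apart.

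Depth, recovered from the steps between low FPKM values, was 77.6 to 82.7 M reads. Libraries had 9888 to 12820 genes with an FPKM of 1 or above. Heart muscle genes were high in every library: 12 genes listed as ventricular muscle markers, Myh6 and Tnnt2 among them, summed to 16545-18034 FPKM in the controls, 13182-17766 in MI and 11971-21374 after HXP. Of the 12, 3 fell and 0 rose in MI against control, where 3.21% of all genes tested were called lower and 40.1% higher. In bulk tissue fewer muscle cells and less RNA per cell cannot be told apart. Atrial markers (8 genes, Nppa among them) summed to between 97.6 and 356.7 FPKM in control, between 1013 and 8509 in MI, and between 93.8 and 7117 in HXP. The part of the heart taken was not read from these lists. Fibroblast markers (9 genes) summed to between 156.1 and 218.7 FPKM in control, between 485.4 and 2822 in MI, and between 115.2 and 2792 in HXP, and 9 of 9 rose in MI. Without MI 4 and MI 5, limma called 0 of the 12 muscle markers, 0 of the 9 fibroblast markers and 0 of all 13710 genes tested. There 2 of the 12 and 9 of the 9 had an unadjusted limma p below 0.05. Library MI 4 also held skeletal muscle markers, which summed to 182.9 FPKM over 17 genes against 15.5 to 49.2 FPKM in the others, and Myh4 and Myh2 were at 0 in 5 of 6 controls. Library MI 5 held lung epithelial markers at 1204 FPKM over 8 genes against at most 2.76 FPKM in the others, where the defining gene Sftpd was at 0 throughout. The mitochondrial share of reads lay between 36.4% and 42.7% in control, between 20.4% and 33.2% in MI, and between 20.6% and 45.5% in HXP. Sorted, the numbers in the headers of the files fell into 3 blocks divided by wide gaps, called runs here. What these numbers stand for is not stated. Of the 6 HXP libraries, 4 (HXP 1, 3, 4 and 6) shared a run with 1 control and no MI library.

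In control hearts the members spanned a wide range of levels per length. Ankrd1 (673.5 ± 188 FPKM, SD, n = 6) and Fhl2 (632.7 ± 27.6) came first, at ranks 47 and 48 of 28328 genes above 0. They were followed by Csrp3 (264.4 ± 23.8), Ankrd23 (116.9 ± 15.8), Nrap (105.96 ± 9.67), Xirp2 (49.7 ± 5.34), Xirp1 (28.8 ± 1.81), Rcan1 (23.7 ± 2.27) and Fhl1 (12.9 ± 3.32), all in FPKM (SD, n = 6). Within this order the ranges of 3 neighbouring pairs overlapped, namely Ankrd1 with Fhl2, Ankrd23 with Nrap, and Xirp1 with Rcan1. Ankrd2, known chiefly from slow skeletal muscle, was near the floor at 0.276 ± 0.151 FPKM (SD, n = 6). The spread between controls was smallest for Fhl2 (coefficient of variation 4.36%) and Xirp1 (6.30%) and largest among the 9 for Ankrd1 (27.9%).

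**Figure D1:**
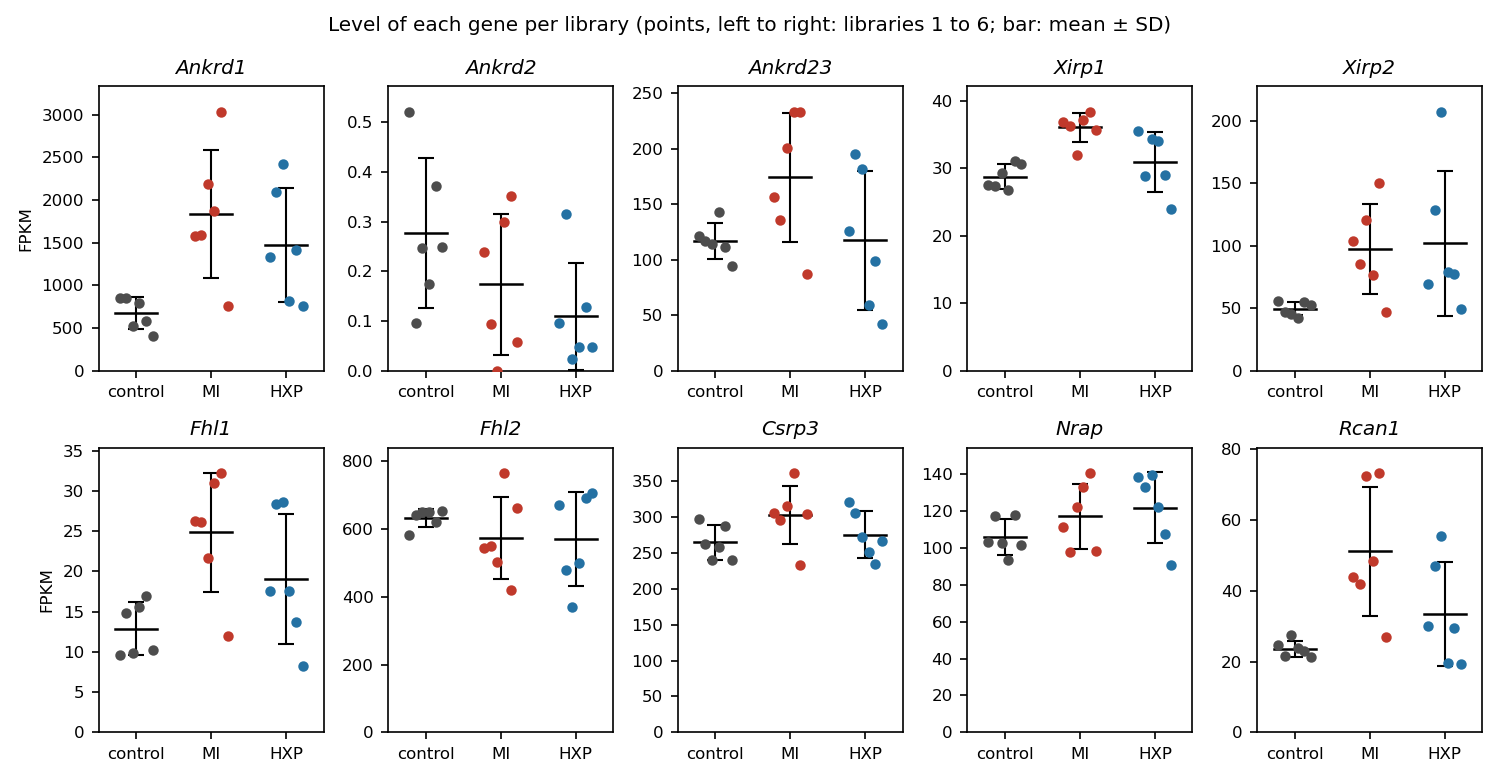
FPKM of each of the 10 genes (vertical axes, linear and starting at 0) in the 18 libraries, points ordered from library 1 to 6 within control (grey), MI (red) and HXP (blue), with bars for mean ± SD. All 6 MI libraries lie above the controls for Xirp1, while for Ankrd1, Xirp2, Fhl1 and Rcan1 the library MI 6 lies within the control range.

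The comparison of MI with control asks how the infarcted heart differs. Of the 9 members tested, 5 rose and 0 fell in MI on the deposited scale: Ankrd1, Rcan1, Xirp2, Fhl1 and Xirp1, the last of which stood at -0.050 on the log2 scale under median-ratio scaling. Without MI 4 and MI 5, the libraries with skeletal muscle and lung markers, 0 of the 9 members passed, and 0 passed in the run of 10 libraries alone (limma, with 5 and 6 members at an unadjusted p below 0.05). Ankrd1 rose from 673.5 to 1836 FPKM on average, Rcan1 from 23.7 to 51.2, Xirp2 from 49.7 to 97.3, Fhl1 from 12.9 to 24.9 and Xirp1 from 28.8 to 36.0. Across all 13710 genes tested, limma (Benjamini-Hochberg adjusted p below 0.05) called 43.3%, with 40.1% higher and 3.21% lower, and all genes had a median log2 fold change of 0.27. The median log2 fold change of the 9 members was 0.50. Fold changes are on the log2(FPKM + 1) scale, which understates the change of low genes.

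Among the titin-binding ankyrin repeat genes, Ankrd1 (ENSMUSG00000024803, chromosome 19, 36111961 to 36120099) ranged from 413.8 to 857.2 FPKM in control (median 694.1), from 760.8 to 3031 in MI (median 1731) and from 758.4 to 2418 in HXP (median 1377). Of the 6 MI libraries 5 lay above every control, and only MI 6 lay within the control range. The log2 fold change was 1.38 in MI against control (SE 0.33, limma adjusted p = 0.0142), and 1.14 without MI 4 and MI 5 (limma adjusted p = 0.0556). Ankrd1 ranked 511 of 13710 genes by the size of its limma statistic. Ankrd23 (ENSMUSG00000067653, chromosome 1, 36530188 to 36536883) ranged from 94.5 to 143.1 FPKM in control (median 115.7), from 87.5 to 233.0 in MI (median 178.3) and from 42.5 to 195.1 in HXP (median 112.7). Its MI libraries lay above every control in 4 of 6 and below every control in MI 6, and its change did not pass (0.50 on the log2 scale, SE 0.33, limma adjusted p = 0.203, 95% interval -0.18 to 1.19). Ankrd2 (ENSMUSG00000025172, chromosome 19, 42036000 to 42045110) lay below the filter and was not tested. Control libraries had 8 to 46 of its reads, MI libraries 0 to 31 and HXP libraries 2 to 28, with groups that overlapped. Its level in MI 4, the library with skeletal muscle markers, was 0.299 FPKM, within the control range of 0.0955 to 0.521. The single library without a read, MI 3, allows up to 0.0339 FPKM (3 reads).

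The Xin repeat genes both rose on the deposited scale, while under median-ratio scaling Xirp1 had a log2 fold change of -0.050. Xirp2 (ENSMUSG00000027022, chromosome 2, 67446002 to 67526614) ranged from 42.6 to 55.5 FPKM in control (median 49.8), from 47.3 to 149.9 in MI (median 94.5) and from 49.7 to 207.0 in HXP (median 78.1). Both MI and HXP reached above the controls, and MI 6 and HXP 6 were the libraries inside the control range. Its log2 fold change in MI was 0.87 (SE 0.29, limma adjusted p = 0.0274). The limma adjusted p of Xirp2 was 0.0505 without control 2, 0.0513 without MI 1, 0.0572 without MI 3 and 0.0714 without MI 5, so that any of these 4 libraries ended the call. Xirp1 (ENSMUSG00000079243, chromosome 9, 120013755 to 120023598) ranged from 26.8 to 31.1 FPKM in control (median 28.4), from 32.0 to 38.3 in MI (median 36.5) and from 23.9 to 35.5 in HXP (median 31.5). It was the only member with 6 of 6 MI libraries above every control, a separation that 27.9% of all genes tested showed in this direction. It differed by 0.31 on the log2 scale (SE 0.090, limma adjusted p = 0.0167), close to the median of all genes (0.27). Xirp1 overlaps the annotated span of Cx3cr1 on the same strand, a macrophage gene at no more than 7.26 FPKM in any library.

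The FHL genes had fold changes of opposite sign in MI, except under the cardiomyocyte marker scaling, where Fhl2 was at 0.088. Fhl1 (ENSMUSG00000023092, chromosome X, 56731787 to 56793346) ranged from 9.67 to 17.0 FPKM in control (median 12.6), from 12.0 to 32.2 in MI (median 26.2) and from 8.25 to 28.6 in HXP (median 17.6). Of the MI libraries 5 of 6 exceeded every control. Its log2 fold change in MI was 0.87 (SE 0.27, limma adjusted p = 0.0228), and the adjusted p was 0.0579 without MI 5. Fhl2 (ENSMUSG00000008136, chromosome 1, 43123074 to 43196984) ranged from 581.5 to 651.96 FPKM in control (median 645.6), from 421.1 to 763.98 in MI (median 546.2) and from 368.8 to 707.5 in HXP (median 586.1). Controls were tightly grouped, while MI libraries fell on both sides, 2 above and 4 below every control. Fhl2 was therefore not completely separated downward from control, as 1.39% of all genes were. The share of all genes with MI libraries on both sides of the controls was not counted. The log2 fold change of Fhl2 was -0.17 (SE 0.16, limma adjusted p = 0.394, 95% interval -0.50 to 0.17), and -0.39, -0.54 and -0.41 under quantile, median-ratio and non-mitochondrial scaling (limma adjusted p from 0.0979 to 0.146). A processed pseudogene, Gm8210, overlaps Fhl2 on the opposite strand at a mean of 3.53 FPKM. Whether the counting used strand is not given in the sources at hand.

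The remaining structural members did not pass the test. Csrp3 (ENSMUSG00000030470, chromosome 7, 48830398 to 48848033) ranged from 240.3 to 297.5 FPKM in control (median 260.3), from 233.5 to 360.4 in MI (median 304.6) and from 234.9 to 320.7 in HXP (median 269.4). Its log2 fold change in MI was 0.19 (SE 0.11, limma adjusted p = 0.150, 95% interval -0.036 to 0.41). Nrap (ENSMUSG00000049134, chromosome 19, 56320035 to 56390037) ranged from 93.6 to 118.0 FPKM in control (median 102.8), from 97.9 to 140.3 in MI (median 116.5) and from 90.5 to 139.2 in HXP (median 127.6). Its log2 fold change in MI was 0.13 (SE 0.12, limma adjusted p = 0.357, 95% interval -0.12 to 0.39). For both genes the groups overlapped, and the intervals do not reach the size of change seen in Ankrd1.

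The calcineurin inhibitor gene Rcan1 (ENSMUSG00000022951, chromosome 16, 92391953 to 92470867) ranged from 21.3 to 27.4 FPKM in control (median 23.5), from 26.9 to 73.2 in MI (median 46.2) and from 19.3 to 55.6 in HXP (median 29.7). Of the MI libraries 5 lay above every control, and MI 6 lay just below the highest control. Its log2 fold change in MI was 1.01 (SE 0.26, limma adjusted p = 0.0146). Ankrd1, Rcan1 and Xirp1 kept a limma adjusted p below 0.05 without any single library. Without both MI 4 and MI 5, 0 of 13710 genes were called by limma (5998 had an unadjusted p below 0.05), and the log2 fold change was 0.86 for Rcan1 (adjusted p = 0.0577), 0.76 for Xirp2 (0.0882), 0.67 for Fhl1 (0.106) and 0.28 for Xirp1 (0.0657). In the run of 10 libraries taken alone (3 controls, 5 MI), 79 genes were called by limma. There the log2 fold change was 1.43 for Ankrd1, 0.86 for Rcan1, 0.81 for Xirp2, 0.88 for Fhl1 and 0.29 for Xirp1. The other runs held 1 MI library at most.

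**Figure D2:**
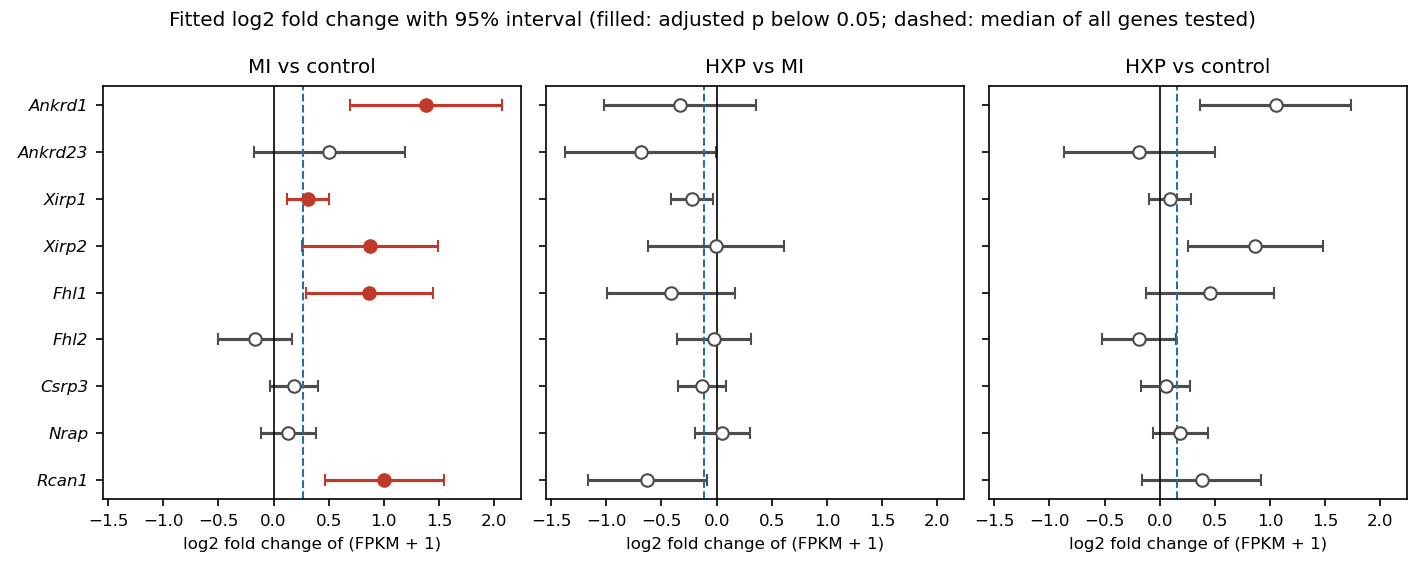
Fitted log2 fold change of FPKM + 1 (horizontal axis) with its 95% interval for the 9 genes tested, in the 3 comparisons. Filled red points have a limma adjusted p below 0.05, and the dashed line is the median of all 13710 genes; 5 genes pass in MI against control and none in the other panels.

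The order of libraries was shared by many members. MI 5 was the highest MI library for 7 of the 9 members and MI 6 the lowest for 5. MI 5 also had the highest fibroblast marker sum of the MI libraries (2822 FPKM) and MI 6 the lowest (485.4 FPKM). Of the 9 members, 9 exceeded every control in MI 4, 8 in MI 3, 7 in MI 1, 7 in MI 5, 5 in MI 2 and 3 in MI 6. MI 4 is the library with skeletal muscle markers and MI 5 the one with lung markers. The matching shares of all genes in each library were not counted, so these counts do not set the members apart. In MI against control, 40.1% of all genes were called higher. As a description over the 18 libraries, which share group differences, the rank correlation with Rcan1 was 0.87 for Ankrd23, 0.86 for Ankrd1, 0.78 for Fhl1 and 0.73 for Xirp2. After subtracting group means it was 0.89, 0.81, 0.57 and 0.67. Fhl2 ran the other way, with a rank correlation of -0.67 with Xirp2, and -0.88 after subtracting group means. Xirp1 stood apart from Ankrd1 within groups (-0.049). The rank correlation with the natriuretic peptide gene Nppa was 0.92 for Rcan1, 0.88 for Ankrd1 and 0.86 for Xirp2, and 0.79, 0.73 and 0.72 after subtracting group means. With the collagen gene Col1a1, a gene of fibroblasts, it was 0.91, 0.84 and 0.79, and 0.88, 0.67 and 0.59 after subtracting group means. Ankrd23 and Fhl1 had 0.76 and 0.84 with Col1a1, and 0.86 and 0.61 after subtracting group means. Of the 12 ventricular muscle markers only Myh6 was compared in this way, so the values do not stand for the whole list. With Myh6, Rcan1, Ankrd1 and Xirp2 had -0.67, -0.79 and -0.68, and -0.65, -0.77 and -0.65 after subtracting group means. Fhl2 went the other way, with -0.49 for Col1a1 and 0.56 for Myh6.

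**Figure D3:**
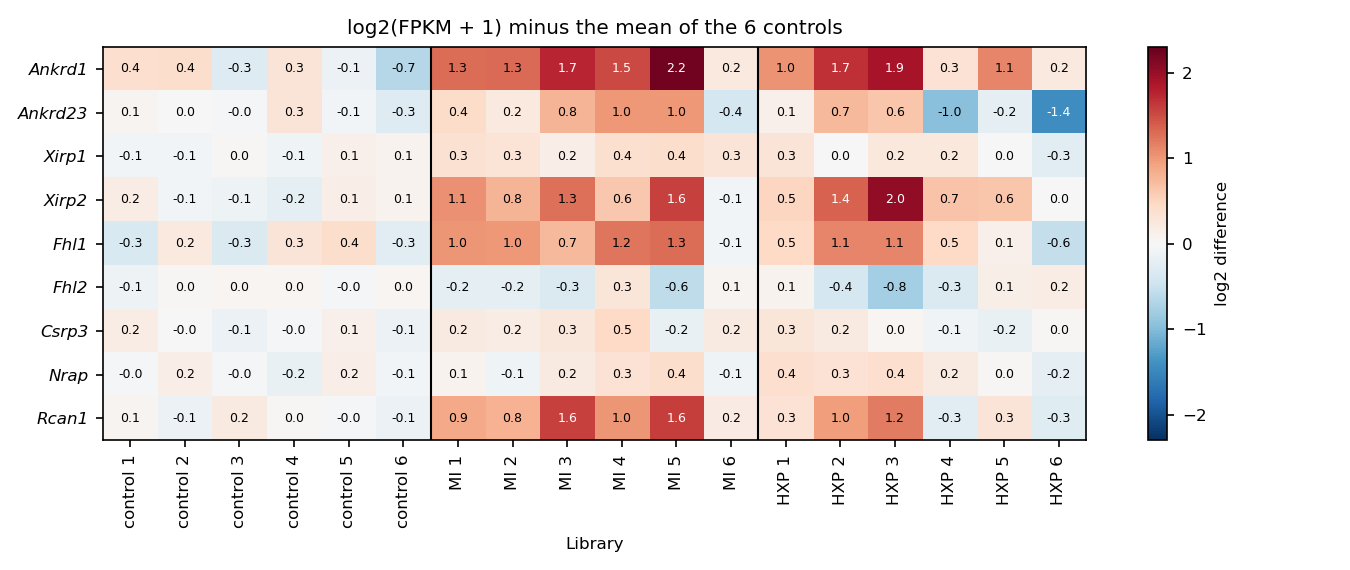
Difference of log2(FPKM + 1) from the mean of the 6 controls for 9 genes (rows) in the 18 libraries (columns), red above and blue below the controls, with the value printed in each cell. Ankrd1, Xirp2, Fhl1 and Rcan1 lie above 0 in MI 1 to MI 5 and in HXP 1, HXP 2, HXP 3 and HXP 5. In HXP 5 they range from 0.12 (Fhl1) to 1.12 (Ankrd1), and in HXP 6 from -0.55 to 0.22.

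Part of these calls depended on the scaling between libraries. So did the split of all calls in MI against control: 5494 higher and 440 lower as deposited, 1810 and 2371 after quantile normalization, 2395 and 2068 after median-ratio scaling, and 3095 and 1283 after scaling to non-mitochondrial reads. Ankrd1 and Rcan1 rose in MI under each of these scalings. The log2 fold change of Ankrd1 was 1.33, 1.00 and 1.14 under the 3 alternatives and that of Rcan1 was 0.71, 0.64 and 0.77. Xirp2 did not pass under any of the 3 (0.63, 0.50 and 0.64), and Fhl1 passed under the last only (0.57, 0.51 and 0.64). Xirp1 had 0.016, -0.050 and 0.081, where the medians of all genes were -0.068, 0.0029 and 0.0997. Nrap turned to -0.098, -0.24 and -0.11, and Csrp3 had 0.11, -0.19 and -0.055. Ankrd23 had 0.31, 0.13 and 0.26, against 0.50 as deposited.

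The ventricular muscle markers had a median log2 fold change of -0.34 in MI. With libraries scaled to the mean log2 level of those 12 markers, 6 of 9 members were called higher in MI. Csrp3 joined them (log2 fold change 0.44, limma adjusted p = 0.0254), Ankrd1 reached 1.64, Rcan1 1.25, Xirp2 1.12, Fhl1 1.11 and Xirp1 0.56, and Fhl2 came to 0.088 (limma adjusted p = 0.496). Under this scaling the median of all genes was shifted by 0.46 and limma called 7200 genes, 7086 of them higher.

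**Figure D4:**
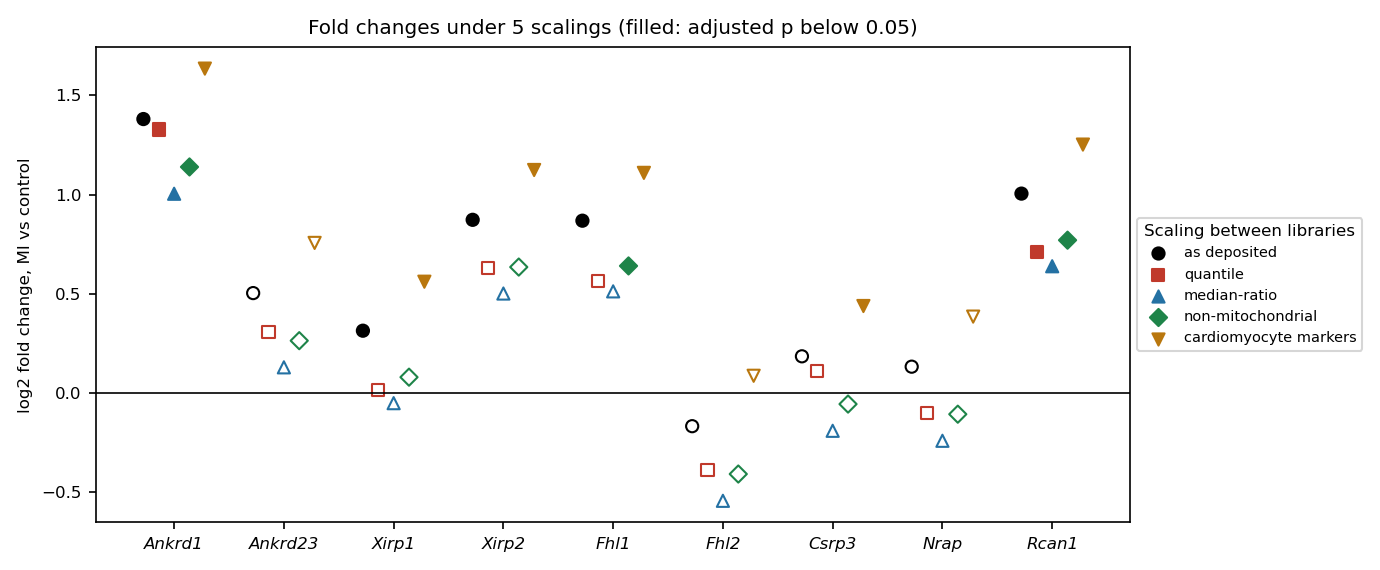
log2 fold change in MI against control (vertical axis) for 9 genes under 5 scalings between libraries, filled where the limma adjusted p was below 0.05. Ankrd1 and Rcan1 are filled under each scaling, while Xirp1, Fhl2, Csrp3 and Nrap have values on both sides of 0.

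Differences between 2 genes of 1 family within a library cancel any factor that scales the whole library, apart from the added 1. These 3 pairs were chosen after the values were seen, so the differences are given as a description with no test. The difference Ankrd1 minus Ankrd23 of log2(FPKM + 1) was 2.48 ± 0.30 in control, 3.35 ± 0.26 in MI and 3.71 ± 0.27 in HXP (SD, n = 6 each). It lay above every control in 6 of 6 MI and 6 of 6 HXP libraries, and 4 of 6 HXP libraries lay above every MI library. Leaving out 1 library kept its mean difference from control between 0.81 and 0.95 in MI and between 1.15 and 1.31 in HXP. The difference Fhl1 minus Fhl2 was -5.55 ± 0.34 in control, -4.51 ± 0.65 in MI and -4.90 ± 0.97 in HXP (SD, n = 6 each). Of the MI libraries 5 of 6 lay above every control, while HXP libraries fell on both sides, 3 above and 1 below every control. Its mean difference from control was 1.04 in MI (0.84 without MI 4 and MI 5). In HXP it was 0.64, with 0.39 without HXP 3, 0.91 without HXP 6 and 1.14 without HXP 5 and HXP 6. The difference Xirp2 minus Xirp1 was 0.76 ± 0.13 in control, 1.32 ± 0.58 in MI and 1.54 ± 0.65 in HXP (SD, n = 6 each). In both groups 5 of 6 libraries lay above every control, and MI 6 lay below every control. Its mean difference from control was 0.56 in MI, with 0.48 without MI 4 and MI 5 and 0.74 without MI 6, and 0.78 in HXP (0.57 to 0.89 when leaving out 1 library).

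**Figure D5:**
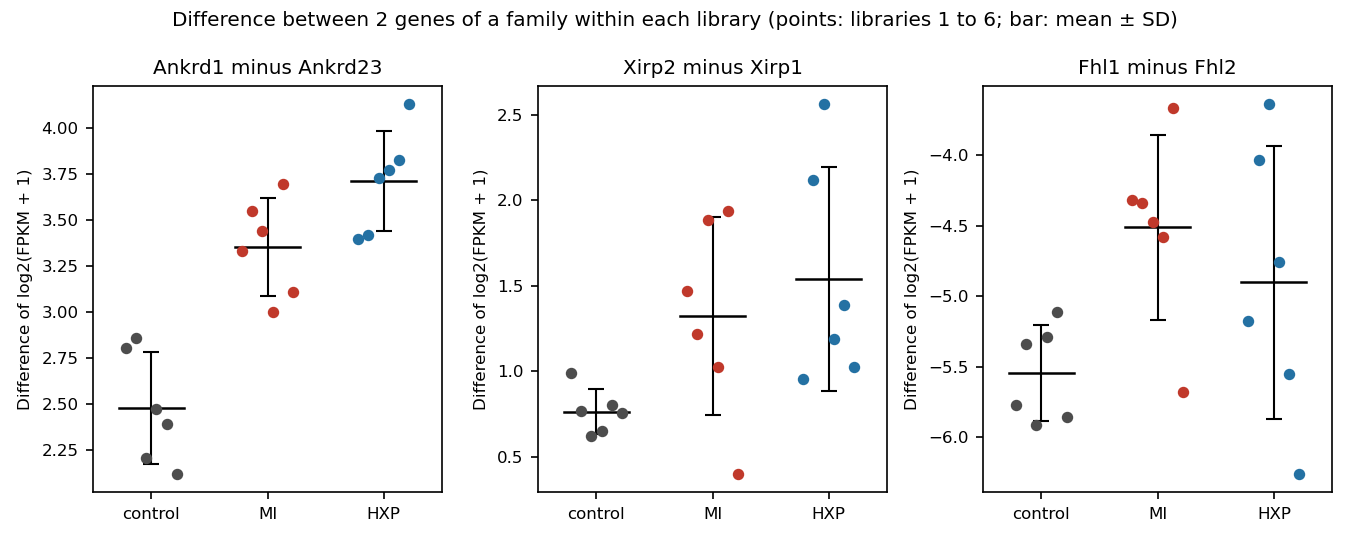
Difference of log2(FPKM + 1) between 2 genes of a family in each library (vertical axes, which do not start at 0), points ordered from library 1 to 6 in control, MI and HXP, with bars for mean ± SD. For Ankrd1 minus Ankrd23 all MI and HXP libraries lie above all controls.

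The comparison of HXP with MI asks whether treated hearts differ from infarcted ones. By limma 0 of the 9 members and 0.00% of the 13710 genes passed, with 3 members and 1891 genes at an unadjusted p below 0.05, and 0 members passed by voom on recovered reads. The 3 members were Xirp1, at 30.9 ± 4.46 FPKM in HXP and 36.0 ± 2.17 in MI (log2 fold change -0.22, 95% interval -0.41 to -0.036, limma adjusted p = 0.321), Rcan1, at 33.5 ± 14.8 and 51.2 ± 18.3 (-0.63, interval -1.17 to -0.087, limma adjusted p = 0.323), and Ankrd23, at 117.3 ± 62.7 and 174.3 ± 58.1 (-0.69, interval -1.37 to -0.0038, limma adjusted p = 0.361, SD and n = 6 each). Without MI 4 and MI 5, 0 members and 1079 of 13710 genes had an unadjusted limma p below 0.05. In the run of 10 libraries 1 member and 971 genes had one. The HXP and MI libraries of these genes overlapped, with 3, 2 and 2 HXP libraries below every MI library. Ankrd1 stood at 1474 ± 669 FPKM under HXP, with a log2 fold change of -0.33 against MI (95% interval -1.02 to 0.36), and Fhl1 at 19.0 ± 8.10 FPKM (-0.42, interval -0.99 to 0.16; SD, n = 6 each). Leaving out 1 library moved Ankrd1 between -0.56 (without MI 6) and -0.16 (without MI 5), with -0.50 without HXP 3, -0.19 without HXP 4 and -0.17 without HXP 6. It moved Fhl1 between -0.60 (without MI 6) and -0.21 (without HXP 6), and Fhl1 had -0.081 without HXP 5 and HXP 6. Xirp2, at 101.9 ± 57.7 FPKM under HXP (SD, n = 6), had the smallest fitted difference from MI (-0.0074 on the log2 scale, 95% interval -0.62 to 0.61). The intervals for Fhl2 (-0.36 to 0.31), Csrp3 (-0.35 to 0.089) and Nrap (-0.20 to 0.30) held changes of 0.36 or less in either direction. In the run of 10 libraries (5 MI, 2 HXP) the log2 fold change was -0.29 for Xirp1, -0.25 for Rcan1 and -0.15 for Ankrd23, against 0.19 for Ankrd1, which turned sign. Of the 9 members 1 (Nrap) had a positive log2 fold change, where the median of all genes was -0.12 and that of the members -0.22.

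The comparison of HXP with control asks how treated hearts differ from controls. It shares its controls with MI against control. By limma 0 of 9 members passed against 0.314% of all genes (0.0948% higher, 0.219% lower), and for 0 members were all HXP libraries above every control, against 1.13% of all genes. Unadjusted p was below 0.05 for 2 members and 4541 genes, and 0 members passed by voom. The 2 were Ankrd1 (log2 fold change 1.05, 95% interval 0.36 to 1.74, limma adjusted p = 0.0893), with 4 of 6 HXP libraries above every control, and Xirp2 (0.87, interval 0.25 to 1.48, limma adjusted p = 0.0963), with 5 of 6. The spread between HXP libraries was wider than between controls: the coefficient of variation was 53.4% for Ankrd23, 56.7% for Xirp2 and 44.1% for Rcan1 in HXP, against 13.5%, 10.7% and 9.56% in control. In the run of 10 libraries (3 controls, 2 HXP) the log2 fold change was 1.62 for Ankrd1 and 1.08 for Xirp2, with limma adjusted p of 0.176 and 0.184. Fold changes of the other members were 0.45 for Fhl1, 0.38 for Rcan1, 0.19 for Nrap, 0.090 for Xirp1, 0.054 for Csrp3, -0.18 for Ankrd23 and -0.19 for Fhl2 on the log2 scale, with limma adjusted p from 0.237 to 0.727.

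HXP 6 was the lowest HXP library for 7 of the 9 members, had 5 members below every control (Ankrd23, Xirp1, Fhl1, Nrap and Rcan1) and only Fhl2 above them. It also had the lowest fibroblast marker sum of all 18 libraries (115.2 FPKM) and the highest mitochondrial share (45.5%). Its number of genes at 1 FPKM or above was the lowest as well (9888). The part of any of these in the member values was not tested. The matching shares of all genes in HXP 6, HXP 3 and HXP 4 were not counted, so the counts of members do not set them apart. HXP 3 was the highest for 5 members, with Xirp2 at 207.0 FPKM and Ankrd1 at 2418 FPKM, and had the highest fibroblast sum among HXP libraries (2792 FPKM). Without HXP 6, limma called 4236 genes in HXP against control, and Ankrd1 (log2 fold change 1.21, limma adjusted p = 0.0209) and Xirp2 (1.04, limma adjusted p = 0.0212) passed. Without both HXP 5 and HXP 6 it called 5967 genes and 4 members, Ankrd1 (1.24), Xirp2 (1.14), Fhl1 (0.79) and Nrap (0.33), with limma adjusted p from 0.0118 to 0.0283. HXP 6 was the lowest HXP library for all 4 of these genes, so leaving it out raises their HXP means. These calls show how far the result depends on HXP 6 and are no support for a difference from control. HXP 4 was mixed: Xirp1, Xirp2, Fhl1 and Nrap lay above every control and Ankrd23, Fhl2 and Rcan1 below.

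Other genes of the same pathways were taken from lists of names. Without MI 4 and MI 5 limma called 0 of them in MI against control, and 0 of all 13710 genes. Of 34 measured partners at titin, the Z-disc and adhesion sites, 12 rose and 0 fell in MI, and 22 did not pass (median log2 fold change 0.058, against 0.27 for all genes, of which 40.1% were called higher). Those with the smallest p were the LIM gene Pdlim3 (1.70, SE 0.37), Csrp2, the smooth muscle relative of Csrp3 (2.09, SE 0.47), the Z-disc gene Synpo2l (1.02, SE 0.23) and Pdlim1 (0.68, SE 0.16), with limma adjusted p from 0.0139 to 0.0141 and 6 of 6 MI libraries above every control, as in 27.9% of all genes. In HXP 0 of 34 passed by limma or voom against MI (6 at an unadjusted limma p below 0.05) or control (7). Of all 13710 genes, 1891 and 4541 had such an unadjusted p. The smallest p in HXP against MI were those of the LIM genes Lmcd1 (-0.68, limma adjusted p = 0.248) and Fhl3 (-0.60, limma adjusted p = 0.289). In HXP against control they were those of Tcap, the titin cap (-0.93, limma adjusted p = 0.0881, from 1037 to 593.1 FPKM), and Pdlim3 (1.26, limma adjusted p = 0.0881). Of 8 smooth muscle markers 4 rose in MI (sum 362.5 to 540.2 FPKM in control and 455.5 to 876.8 in MI), and their part in Pdlim3 and Csrp2 was not tested.

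In the calcineurin and NFAT pathway, which Rcan1 restrains, 6 of 15 genes rose and 1 fell in MI (median log2 fold change 0.23), where 40.1% of all genes were called higher and 3.21% lower, so that the count of genes that rose was at the level of all genes. The transcription factor genes Nfatc4 (1.09, SE 0.29) and Nfatc1 (0.63, SE 0.18), the calcium-binding Cib1 (0.67, SE 0.22) and the calcineurin-binding Cabin1 (0.50, SE 0.17) rose, each with 6 of 6 MI libraries above every control, as in 27.9% of all genes. The catalytic subunit gene Ppp3cb fell by 0.50 on the log2 scale (SE 0.13, limma adjusted p = 0.0149), with 5 of 6 MI libraries below every control. In HXP 0 of 15 passed by limma or voom against MI (1 at an unadjusted limma p below 0.05) or control (4). Of all 13710 genes, 1891 and 4541 had such an unadjusted p. The smallest p were those of Ppp3cb (0.34, limma adjusted p = 0.318) and Cib1 (-0.45, limma adjusted p = 0.367) against MI, and of Ppp3r1 (0.16, limma adjusted p = 0.101) and Ppp3ca (0.28, limma adjusted p = 0.108) against control.

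Among genes of YAP, TEAD and SRF, transcription regulators that respond to cell tension, and their targets, 8 of 15 rose and 0 fell in MI (median log2 fold change 0.41, against 0.27 and 40.1% called higher for all genes). Of the 15 genes, 12 were highest among MI libraries in MI 5 and 11 were highest among HXP libraries in HXP 3. These libraries had the highest fibroblast marker sums (2822 and 2792 FPKM) and lowest mitochondrial shares (20.4% and 20.6%) of their groups. MI 5 also held lung epithelial markers (1204 FPKM). The part of any of these in the values was not tested, and the share of all genes highest in MI 5 or HXP 3 was not counted. Ccn2, a target of YAP and TEAD that encodes connective tissue growth factor, rose from 17.9 to 180.2 FPKM (3.04, SE 0.53, limma adjusted p = 0.0127). Ccn1 (1.27, SE 0.33), the kinase gene Lats1 (0.73, SE 0.19) and the SRF coactivator gene Mrtfa (0.84, SE 0.22) followed. In HXP 0 of 15 passed by limma or voom against MI (6 at an unadjusted limma p below 0.05) or control (4). Of all 13710 genes, 1891 and 4541 had such an unadjusted p against MI and control. Ccn2 averaged 99.6 FPKM in HXP (1.93 against control, limma adjusted p = 0.0881) and Lats1 had 0.52 against control (limma adjusted p = 0.102). Against MI the smallest p were those of Amotl2 (-1.12, limma adjusted p = 0.235, 4 of 6 HXP libraries below every MI library) and Srf (-0.54, limma adjusted p = 0.256). The 4 wall stress genes Nppa, Nppb, Myh7 and Acta1 all rose in MI, with log2 fold changes of 4.35, 1.88, 2.17 and 1.34. Without MI 4 and MI 5, the libraries with skeletal muscle and lung markers, limma called 0 of the 4 (3 at an unadjusted p below 0.05). It called 0 of all 13710 genes there as well. In the run of 10 libraries alone it called 2 of the 4 and 79 of the 13710 genes. In HXP 0 of the 4 passed by limma or voom against MI (0 at an unadjusted limma p below 0.05) or control (3).

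The genes most alike to each member, by rank correlation of log2(FPKM + 1) over the 18 libraries, were sought among genes at 1 FPKM or more on average that have an established symbol. For Rcan1 they were Tubb2a (0.97), Eno1 (0.97) and Mtch1 (0.97), for Ankrd1 Eno1b (0.96), Lamp1 (0.95) and Sumf1 (0.95), and for Ankrd23 Jpt1 (0.94), Ntng2 (0.93) and Sec61b (0.92). Fhl2 was most like Itgb1bp2, which encodes melusin, an integrin-binding protein of heart muscle (0.93, and 0.92 after subtracting group means), then Mpi (0.93) and the muscle enolase gene Eno3 (0.88). Xirp2 went with C1rl (0.95), Lilrb4a (0.94) and Wdr47 (0.94), and Fhl1 with Ifrd1 (0.95), Gstt3 (0.95) and Thbs2 (0.94). The values were lower for Xirp1 (Cep170b, 0.90), Nrap (Tmem120a, 0.85) and Csrp3 (Stx8, 0.77). Libraries share depth, group and tissue make-up, so these values describe the 18 libraries only.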

How the data were processed

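RNA of heart tissue was measured in 18 libraries. The authors deposited 1 file per library with 34150 Ensembl genes. The deposited values are taken as FPKM from the values themselves, since the file headers do not name a unit: value times merged exon length fell on whole reads (within 0.1) for 97.7% to 98.1% of the values checked per library. The submitters' processing notes name GRCm38 and limma; the aligner, the counter and the authors' annotation: not given in the sources used here. IDs were matched to GENCODE M21 (34057 matched, 93 not). Genes averaging 0.5 FPKM or more (13710) entered a 3-group linear model of log2(FPKM + 1) in limma (version 3.58.1, R version 4.3.3) with a mean-variance trend, two-sided, Benjamini-Hochberg adjusted over all genes at 0.05. Fold changes carry the model's standard error or 95% interval. Nothing says which libraries came from separate mice, so p-values measure the spread between libraries. Family differences were chosen after the values were seen and carry no test. The fit was tested on simulated data. The members, lists and tests were chosen with earlier results of these data known. Named genes are the 10 members, at most 4 called genes per list and direction by smallest p (2 where none was called), and the 3 genes most alike to each member, of which some are given. Ankrd2 was described without a test. Alternatives covered pseudocount, filter, scaling, prior, samples, replicate block, run and recovered reads. MI 1 and MI 2 were the closest pair but differed by more than counting noise and were kept apart.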

Additional observations from a re-analysis of the deposited data

Results flagged for a closer look

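Of 30 groups of 6 libraries checked (10 genes in 3 groups), 1 had a library far from the others. Ankrd2 stood at 0.316 FPKM (28 reads) in HXP 2, and its distance to the next HXP library was 0.641 of the range of the group, above Dixon's 95% critical value for 6. Chance sets apart about 1 in 20 such groups.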

How the results depend on the processing

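The directions of Ankrd1, Rcan1, Xirp2 and Fhl1 in MI against control held under each alternative run. Members called there numbered 3 without a filter on low values, 2 after quantile normalization, 2 after median-ratio scaling, 3 after scaling to non-mitochondrial reads, 0 in the run of 10 libraries alone and 0 without MI 4 and MI 5, and 3 to 5 when leaving out 1 library. Over all genes 2292 were called with a mean of at least 5 FPKM (fewer genes tested), 79 in the run of 10, 0 without MI 4 and MI 5, and 2656 to 6717 when leaving out 1 library. For HXP against MI all genes called were 4 (quantile), 5 (median-ratio), 1 (non-mitochondrial), 1 (replicate block), 3 (run of 10) and 0 to 71 when leaving out 1 library. For HXP against control they were 103 with a pseudocount of 0.1, 0 without a filter, 85 with a mean of at least 5 FPKM, 1231 (quantile), 1267 (median-ratio), 1011 (non-mitochondrial), 5 (cardiomyocyte markers), 5 with only the groups compared, 1 with the replicate block, 0 with run as a covariate, 3 in the run of 10, 16 with MI 1 and MI 2 averaged, 5967 without HXP 5 and HXP 6, 15 by voom and 0 to 4236 when leaving out 1 library. Members called in HXP against control were 4 without HXP 5 and HXP 6 and 0 to 2 when leaving out 1 library. The cause was not tested.

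The replicate numbers did not pair the libraries: of 18 same-number pairs 5 correlated above 0.1 (r from -0.31 to 0.63), and 2 of 18 libraries were closest to their own number. With the replicate block, 5610 genes were called in MI against control, 1 in HXP against MI and 1 in HXP against control, and the members called stayed at 5, 0 and 0.

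Values that changed sign in MI against control were -0.050 for Xirp1 (median-ratio), 0.088 for Fhl2 (cardiomyocyte markers), -0.19 and -0.055 for Csrp3 (median-ratio, non-mitochondrial) and -0.098, -0.24 and -0.11 for Nrap (quantile, median-ratio, non-mitochondrial). In HXP against MI, Ankrd1 had 0.19 in the run of 10. Xirp2 had 0.16 (quantile), 0.15 (median-ratio), 0.11 (non-mitochondrial), 0.047 (run as a covariate), 0.27 (run of 10), 0.0006 (MI 1 and MI 2 averaged), 0.11 without MI 4 and MI 5, 0.27 without HXP 5 and HXP 6, and -0.24 to 0.16 when leaving out 1 library. Fhl2 had 0.093, 0.14 and 0.094 (quantile, median-ratio, non-mitochondrial), 0.034 (run as a covariate) and -0.11 to 0.095 when leaving out 1 library. Csrp3 had 0.030 (median-ratio) and Nrap -0.025 (cardiomyocyte markers). In HXP against control, Ankrd23 had 0.046 (run as a covariate), 0.27 (run of 10), 0.14 without HXP 5 and HXP 6, and -0.37 to 0.064 when leaving out 1 library. Xirp1 had -0.061, -0.12 and -0.030 (quantile, median-ratio, non-mitochondrial), Csrp3 -0.16, -0.071 and -0.025 (median-ratio, non-mitochondrial, run as a covariate) and Nrap -0.025 (median-ratio). Fhl1 minus Fhl2 in HXP against MI had 0.11 without HXP 5 and HXP 6. Alternatives for these family differences were chosen after seeing the data. The cause was not tested. Depth limits Ankrd2 only, with 0 to 46 reads per library.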
